A study of Mus musculus with 28 samples.

Results

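Otx1, Otx2, Emx1, Emx2 and Six3, which pattern the forebrain, and En1, En2 and Gbx2, which pattern the midbrain and hindbrain, were followed through maps of histone marks, protein binding and DNA methylation in mouse neural stem cells. These 8 genes, of 21887 protein-coding genes on the assembled chromosomes, were taken by name: 5 forebrain factors and 3 midbrain and hindbrain factors. The cells were male neural stem cells grown with EGF and bFGF from E14.5 brain of a C57BL/6 x FVB/N cross, and the labels name no brain region. Null cells were homozygous for the MommeD1 allele of Smchd1 and were compared with wild-type cells. Smchd1 is an SMC-family (structural maintenance of chromosomes) protein with a part in gene silencing.

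The 28 libraries fell into 14 groups. Chromatin immunoprecipitation (ChIP) of Smchd1, of H3K4me3 and of H3K27me3 had 2 null and 2 wild-type libraries each. Ctcf, a zinc finger protein of insulators and chromatin loops, was immunoprecipitated in null cells, in wild-type cells carrying a non-silencing short hairpin RNA and in untransduced wild-type cells, with 2 libraries each. A further 2 Ctcf libraries, 1 for each of 2 hairpins against Ctcf in wild-type cells, served as the control of the Ctcf calls. Methylated DNA was captured with beads bearing the MBD2 methyl-CpG binding domain (MBD) in 3 libraries per genotype, and each genotype had 1 whole cell extract. The values come from 11 deposited summit lists, which give the top of each peak as a single position on the mm10 genome, each called on the pooled libraries of its group. There is therefore no replicate error, no test across samples and no known depth, and every difference between genotypes is a difference between 2 lists.

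The 8 proteins are homeodomain transcription factors. In the mouse embryo Otx2 is needed for the forebrain and midbrain to form, and the border between Otx2 and Gbx2 sets the position of the midbrain-hindbrain organiser. En1 and En2 are expressed around that organiser, Six3 at the front end of the neural plate, and Emx1 and Emx2 in the developing cerebral cortex. Genes of this kind are classical targets of Polycomb proteins, which deposit H3K27me3 on them where they are silent, whereas H3K4me3 marks promoters that are active or poised.

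The promoters of 4 of these genes are shown because they carry the contrasts described next: in the wild-type lists Emx2 had H3K4me3 and no H3K27me3, Otx2 had H3K27me3 and no H3K4me3, and En1 and Emx1 had both. Each sequence runs 5′ to 3′ from 250 bases before to 50 bases after a RefSeq start on GRCm38.p6, the assembly that mm10 stands for, with CpG dinucleotides in capitals. They lie at chr19:59458440-59458739 on the plus strand (Emx2), chr14:48665060-48665359 on the minus strand (Otx2, the start with the most CpGs of its 4), chr1:120602237-120602536 on the plus strand (En1) and chr6:85187681-85187980 on the plus strand (Emx1).
Emx2: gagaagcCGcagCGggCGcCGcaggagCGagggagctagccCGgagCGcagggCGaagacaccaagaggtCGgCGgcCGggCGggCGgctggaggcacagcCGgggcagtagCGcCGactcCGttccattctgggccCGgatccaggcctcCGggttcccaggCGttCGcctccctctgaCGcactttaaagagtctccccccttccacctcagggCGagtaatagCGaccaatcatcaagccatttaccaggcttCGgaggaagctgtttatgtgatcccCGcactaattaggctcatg
Otx2: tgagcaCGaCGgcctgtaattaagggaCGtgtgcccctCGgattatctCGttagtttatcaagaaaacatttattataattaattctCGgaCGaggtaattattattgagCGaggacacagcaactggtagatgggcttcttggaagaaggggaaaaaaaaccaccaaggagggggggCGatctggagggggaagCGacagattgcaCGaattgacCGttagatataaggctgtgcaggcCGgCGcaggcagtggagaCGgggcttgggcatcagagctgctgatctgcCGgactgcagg
En1: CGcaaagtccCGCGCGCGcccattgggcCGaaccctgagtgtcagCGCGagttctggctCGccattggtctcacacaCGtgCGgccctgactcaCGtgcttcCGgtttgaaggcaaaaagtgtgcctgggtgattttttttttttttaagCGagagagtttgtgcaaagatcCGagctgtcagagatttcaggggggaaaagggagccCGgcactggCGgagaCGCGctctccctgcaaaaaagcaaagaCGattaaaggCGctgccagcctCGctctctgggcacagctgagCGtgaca
Emx1: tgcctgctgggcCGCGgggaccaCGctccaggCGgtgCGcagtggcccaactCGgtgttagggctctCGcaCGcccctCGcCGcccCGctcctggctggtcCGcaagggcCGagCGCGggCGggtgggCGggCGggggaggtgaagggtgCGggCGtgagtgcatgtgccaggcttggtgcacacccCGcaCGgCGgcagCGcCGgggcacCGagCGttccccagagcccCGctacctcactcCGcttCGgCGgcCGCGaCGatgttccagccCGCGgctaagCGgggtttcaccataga

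These promoters differed in CpG content. The table of RefSeq promoters held 6 of the 8 genes with 9 starts in all. Emx1 had 37 CpGs in 300 bases, more than 94.4% of the 32851 mouse promoters in the table, and a GC content of 74.0%. Gbx2 had 27 CpGs, Emx2 had 26, En1 had 23 and Six3 had 14, whereas the 4 Otx2 starts had between 6 and 16. The median over all promoters was 7 CpGs and 52.7% GC, so in CpG count the Otx2 starts lay on both sides of the median and the other genes above it, while the GC content of the Six3 promoter lay below the median. Among all genes with a promoter in the table, the promoter with the most CpGs had a median of 21 CpGs in the 11747 genes with wild-type H3K4me3 and of 3 in the 5745 genes without it. It had a median of 18 in the 77 genes with wild-type H3K27me3 and no H3K4me3, the class to which Otx2 and Six3 belonged.

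The same promoters were searched on both strands for TAATTA, a core that many homeodomains bind and that is its own reverse complement, and for TAATCC, which Otx proteins bind. TAATTA occurred 3 times in the Otx2 promoter shown, once in the Otx2 promoter at chr14:48667595-48667894 and once in the Emx2 promoter, and in 5.29% of all promoters. TAATCC occurred once, on either strand, in the Otx2 promoter shown, and in 7.06% of all promoters. The remaining promoters of these genes held neither word in these 300 bases. Both words begin with TAAT, no matches of the 2 words overlapped here, and a match is a run of letters and not a bound site.

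**Figure D1:**
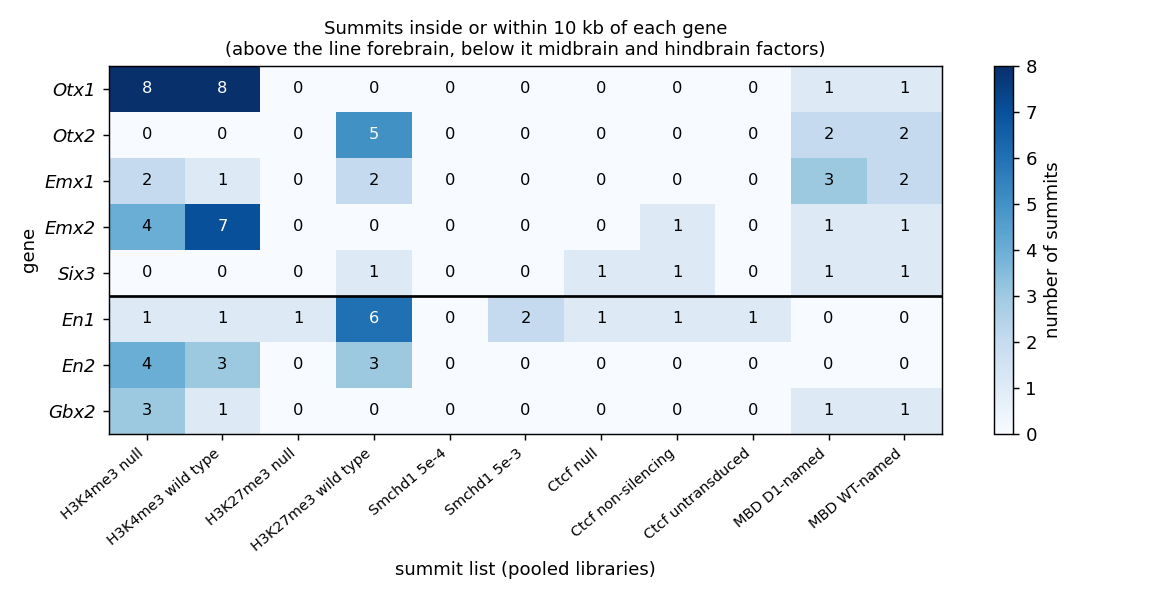
Number of summits inside each gene or within 10 kb of it, for the 8 genes (rows) in the 11 summit lists (columns). Otx2 and Six3 have 0 in both H3K4me3 lists, and H3K27me3 summits lie at 1 gene in the null list, against 5 genes in the wild-type list.

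H3K4me3 was present at the same 6 of the 8 genes in null and in wild-type cells. Otx1, Emx1, Emx2, En1, En2 and Gbx2 each had a summit inside the gene or within 10 kb in both lists, and Otx2 and Six3 had none in either. Counted the same way, 66.8% of protein-coding genes were listed in null cells and 67.1% in wild-type cells, so a count of 6 of 8 is close to the background. Of the genes listed in wild-type cells 98.1% were listed in null cells too, and of those listed in null cells 98.5% were listed in wild-type cells too, as were these 6. By region, 3 of 5 forebrain factors and 3 of 3 midbrain and hindbrain factors were listed in each genotype. The forebrain factors held 14 summits in null cells and 16 in wild-type cells, and the midbrain and hindbrain factors held 8 in null cells and 5 in wild-type cells. Leaving out summits that lay nearer to an end of another coding gene, these were 10 null and 13 wild-type forebrain summits, and 7 null and 5 wild-type midbrain and hindbrain summits. Of the 6 genes listed in both genotypes, Emx1, En2 and Gbx2 had more summits in the null list, Emx2 had fewer, and Otx1 and En1 had equal numbers. Over all 14417 coding genes listed in both, 21.8% had more in the null list and 16.1% fewer. The counts at the 8 genes moved with the score minimum. With scores of at least 5 they held 19 summits in each genotype, and En2 had 3 and Gbx2 1 in each list. Otx1 then had 8 in null and 7 in wild-type cells, Emx2 had 4 and 7, and Emx1 had 2 in null cells only. With scores of at least 10, En1 was listed in null cells only.

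The scores of these lists, the authors' own, are −log10 p-values or q-values from the peak caller and are used here only to rank summits within a list. The null list held 24201 H3K4me3 summits on the assembled chromosomes and the wild-type list 23449. Ranks from lists of different length cannot be used to show a change between genotypes.

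Among the forebrain factors, Otx1, which acts in growth of the cortex, had the most summits, 8 in null cells and 8 in wild-type cells. They ran through the gene and past its upper end on chromosome 11 (21994764 to 22001651) towards Ehbp1, whose nearest end lies 4174 bp away. The last 4 in null cells and the last 3 in wild-type cells were nearer to Ehbp1, so marks of the 2 genes cannot be told apart there. An RNA gene, Gm32517 (21998499 to 22000584), lies wholly inside Otx1, so summits near Gm32517 cannot be assigned to Otx1 alone. The highest null summit at Otx1 had a score of 55.2, above 91.3% of its list, at position 22002040. The highest wild-type summit had a score of 42.4, above 77.0% of its list, at position 22001524. Both lay at the upper end of Otx1, the null summit just outside the gene and the wild-type summit just inside it.

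Emx2, which specifies the caudal and medial cortex, had 4 summits in null cells, with scores of 49.1, 5.04, 8.10 and 6.65 in chromosome order. In wild-type cells it had 7, with scores of 13.7, 43.3, 42.0, 10.3, 5.86, 6.85 and 7.27. A high summit stood just before the start in both genotypes, 504 bp upstream in null cells and 473 bp upstream in wild-type cells. Emx2os, an antisense RNA gene, lies 55 bp from Emx2, so that summit cannot be assigned to either gene alone. The second high wild-type summit, of score 42.0 at position 59460110 on chromosome 19, lay 1420 bp into the gene, and the nearest null summit was 1924 bp away. Of the 5648 wild-type H3K4me3 summits with a score at least as high, 23 (0.407%) had no null summit within 1 kb, and the Emx2 summit was among them. The lists give no peak widths, so a null peak that covers this position from a summit farther away would not be seen. This summit was singled out after its values were seen.

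Emx1, a marker of the cortical lineage, was listed weakly. In null cells it had 2 summits, of score 6.98 at position 85187980 and of score 9.27 at position 85190379 on chromosome 6. In wild-type cells it had 1, of score 4.33 at position 85190432, above 1.90% of its list. The null summit at 85187980 is the last base of the promoter printed here, 49 bp into the gene, and the nearest wild-type summit was 2452 bp away. It was the only H3K4me3 summit of these genes that fell inside a promoter of the table. Among null H3K4me3 summits with a score no higher, 1083 of 3136 (34.5%) had no wild-type summit within 1 kb. The absence of a counterpart was therefore common among summits of this score or lower, and the share at this score alone was not counted.

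Otx2 and Six3 had no H3K4me3 summit within 10 kb in either genotype, and Six3 had one in both within 20 kb. The summit nearest to Otx2 lay 41976 bp from the gene in null cells and 42051 bp in wild-type cells, inside the RNA gene Otx2os1. The nearest to Six3 lay 19550 bp away in null cells and 19602 bp in wild-type cells, in the direction of Six2.

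Among the midbrain and hindbrain factors, En1, needed for midbrain and cerebellum to form, had 1 summit in each genotype at nearly the same base. The null summit had a score of 14.3 at position 120603037 and the wild-type summit a score of 5.52 at position 120603048 on chromosome 1, 11 bp apart, and they lay 550 bp (null) and 561 bp (wild-type) into the gene. En2, which acts in cerebellar patterning, had 4 summits in null cells, of scores 13.0, 10.5, 16.2 and 4.62, and 3 in wild-type cells, of scores 5.52, 10.2 and 5.08. All of them lay around or just above the lower end of En2 on chromosome 5. Gbx2, which positions the organiser from the hindbrain side, had 3 summits in null cells, of scores 49.8, 4.99 and 4.12, and 1 in wild-type cells, of score 24.2. The high null summit of Gbx2 lay 683 bp into the gene and the wild-type summit 810 bp into it. The lowest of the null summits was nearer to the coding gene LOC102637806.

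Most of these summits were shared in place. Of the null summits at these genes, 18 of 22 lay within 1 kb of a wild-type one, beside 92.2% of the whole null list. Of the wild-type summits, 20 of 21 lay within 1 kb of a null one, beside 92.6% of the whole wild-type list. The null summits without a counterpart were those at Emx1 (85187980), En2 (28167760) and Gbx2 (89931436 and 89935460), all with scores of 6.98 or lower. The wild-type summit without a counterpart was the Emx2 summit of score 42.0. Within 250 bp, 14 of 22 null summits had a counterpart, beside 74.0% of the null list. At that distance 14 of 21 wild-type summits had one, beside 76.3% of the wild-type list.

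**Figure D2:**
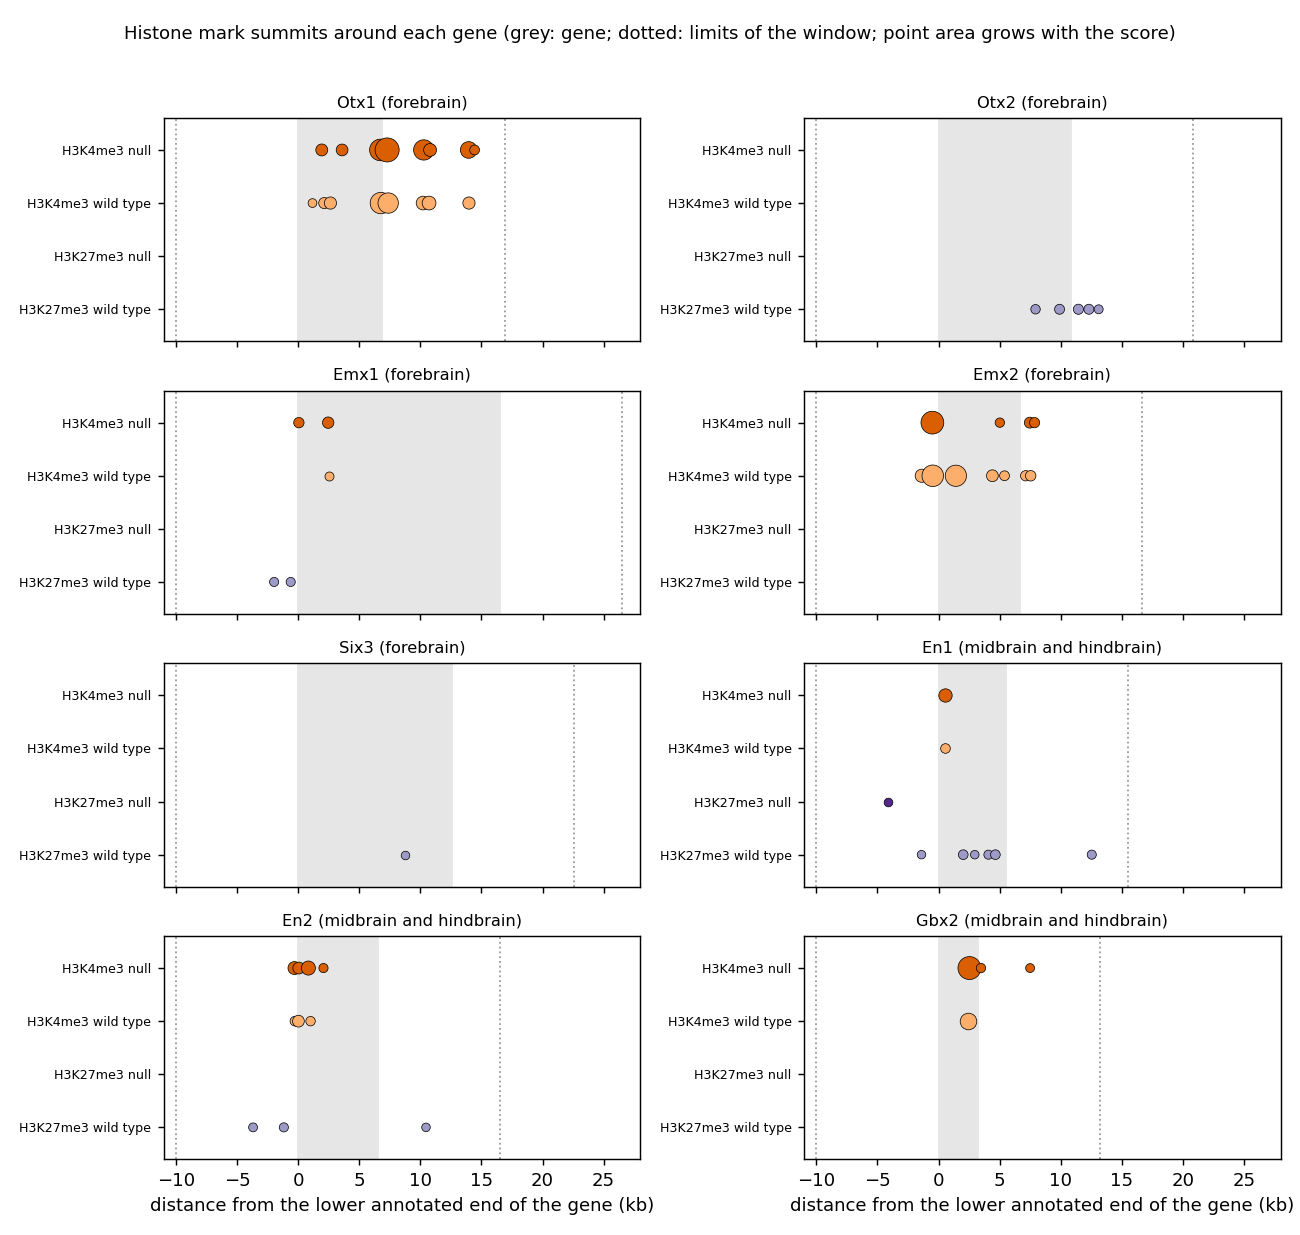
Summit positions of the H3K4me3 and H3K27me3 lists around each of the 8 genes, as distance in kb from the gene's lower annotated end on the chromosome, with each null row above its wild-type row. Grey marks the gene, dotted lines the limits of the 10 kb window, and the area of a point grows with the score. Otx2 shows a run of wild-type H3K27me3 summits with no H3K4me3 summit in either genotype, and Emx2 shows H3K4me3 with no H3K27me3 summit in either.

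H3K27me3 was listed at 1 of the 8 genes in null cells (En1) and at 5 of 8 in wild-type cells (Otx2, Emx1, Six3, En1 and En2). Among all protein-coding genes 0.32% were listed in null cells and 1.24% in wild-type cells. By region, 0 of 5 forebrain factors were listed in null cells and 3 of 5 in wild-type cells, and 1 of 3 midbrain and hindbrain factors in null cells and 2 of 3 in wild-type cells. The genes held 1 summit in null cells and 17 in wild-type cells, 8 at forebrain factors and 9 at midbrain and hindbrain factors.

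The 2 lists also differed in length: the null list held 77 H3K27me3 summits in the whole genome and the wild-type list 732. Of the 271 coding genes with wild-type H3K27me3, 67 (24.7%) were listed in null cells too, beside 1 of 5 among the genes described here. Coding genes listed in null cells and not in wild-type cells made up 0.0137%, and those listed in wild-type cells and not in null cells 0.932%. The part of depth or enrichment in the length of these lists was not tested. The null list of 77 listed En1, against Otx2 and En1 in a wild-type list reduced to its highest summits, 154 of them with ties at a score of 5.60.

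Otx2 had 5 wild-type H3K27me3 summits and no null summit. Their scores were 5.14, 6.17, 6.50, 6.27 and 4.16 in chromosome order (chromosome 14, positions 48664724 to 48669895), and the highest exceeded 97.1% of the wild-type list. They spread over the upper part of the gene and beyond its upper end, where Otx2 starts, and 1 lay 385 bp from the start of the promoter printed here. Emx1 had 2 wild-type summits of score 4.51 each, 1978 and 619 bp upstream of its start. Six3 had 1, of score 3.48 at position 85622318, above 1.64% of the list and so near its threshold. Otx1 and Emx2 had none, and the nearest wild-type summits lay 11197287 bp from Otx1 and 264278 bp from Emx2.

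En1 had the only null summit, of score 3.68 at position 120598318, 4169 bp outside the gene. In wild-type cells En1 had 6 summits, of scores 3.41, 5.60, 3.49, 4.51, 5.60 and 4.51, of which 4 lay inside the gene. The nearest wild-type summit to the null one was 2775 bp away, so En1 was listed in both genotypes with different summits. En2 had 3 wild-type summits, of scores 4.08, 4.51 and 3.49, all outside the gene, and Gbx2 had none. None of the 17 wild-type summits at these genes had a null counterpart within 1 kb, beside 7.24% of the whole wild-type list.

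Several H3K27me3 summits lay at some genes. In wild-type cells Otx2, En1 and En2 each had 3 or more, as did 0.599% of coding genes, and no gene described here had as many in null cells (0.0366% of coding genes). In H3K4me3, Otx1, Emx2, En2 and Gbx2 had 3 or more summits in null cells, and Otx1, Emx2 and En2 in wild-type cells, beside 22.8% of coding genes in null cells and 21.2% in wild-type cells.

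Combining the marks in wild-type cells divided the 8 genes into 3 classes, of which 2 mixed the brain regions. Emx1, En1 and En2 had both marks, as did 0.754% of coding genes. Otx2 and Six3 had H3K27me3 without H3K4me3, as did 0.484% of coding genes. Otx1, Emx2 and Gbx2 had H3K4me3 without H3K27me3, as did 66.4%. Of the 5 genes with H3K27me3, 3 had H3K4me3 as well, beside 60.9% of coding genes with H3K27me3. The first and last classes held factors of both regions, and Otx2 and Six3 are both forebrain factors. In null cells En1 alone had both marks, as did 0.174% of coding genes. These classes rest on low scores. With scores of at least 5 in both marks, En1 alone had both in wild-type cells, and Otx2 alone had H3K27me3 without H3K4me3. En2 then joined Otx1, Emx2 and Gbx2, and Emx1 and Six3 had neither mark. In null cells no gene then had both.

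The 6 genes with H3K4me3 also split by the rank of their highest H3K4me3 summit. Those with wild-type H3K27me3 had their highest null summit above 20.6% (Emx1), 33.8% (En1) and 36.6% (En2) of the null list. Those without it stood above 91.3% (Otx1), 84.6% (Emx2) and 85.0% (Gbx2). In the wild-type list the ranks with H3K27me3 were 1.90%, 6.22% and 22.3%, and without it 77.0%, 78.1% and 46.5%, in the same order of genes. With the full H3K27me3 list the 2 classes therefore did not overlap in either genotype. All coding genes were ordered the same way, with wider spread. Genes with wild-type H3K27me3 had a median rank of 39.9% in the null list (165 genes, quartiles 24.1% and 64.5%), against 76.6% for genes without it (14466 genes, quartiles 57.1% and 89.8%). In the wild-type list these medians were 32.4% (165 genes, quartiles 18.1% and 63.3%) and 75.9% (14531 genes, quartiles 56.0% and 89.6%). The split of the 6 genes rests on low H3K27me3 scores, at most 4.51 at Emx1 and En2. With H3K27me3 scores of at least 5, or equal numbers of summits, Emx1 and En2 were not listed. Emx1, ranked below En1 in both H3K4me3 lists, then joins the class without H3K27me3, and the classes overlap.

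**Figure D3:**
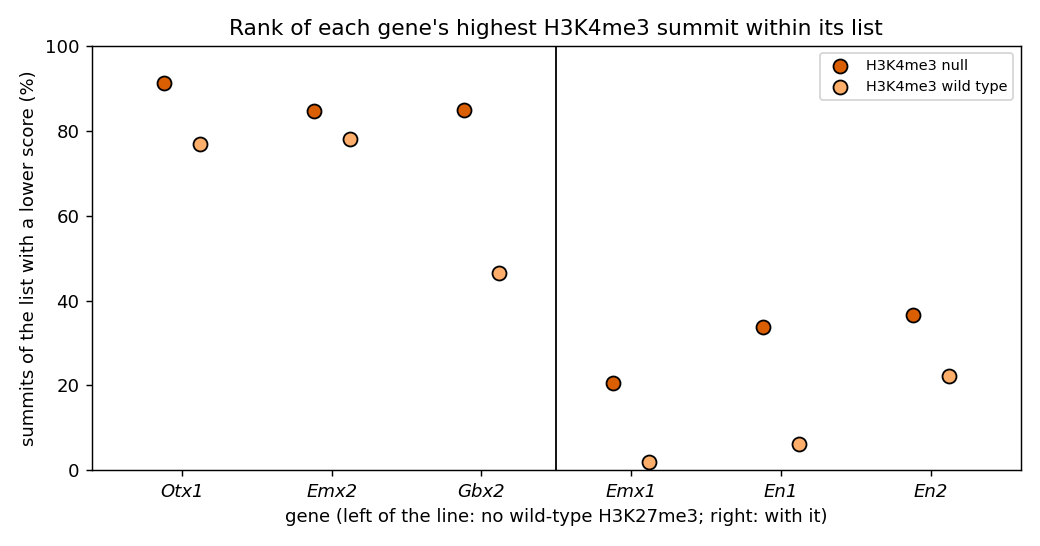
Rank of the highest H3K4me3 summit of each of the 6 listed genes, as the percent of the list with a lower score, in the null (dark) and the wild-type list (light); genes right of the line had wild-type H3K27me3 and genes left of it did not. Emx1, En1 and En2 stand at 36.6% or lower in both lists, and Otx1, Emx2 and Gbx2 at 46.5% or higher.

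Smchd1 binding was called in wild-type cells, with the Smchd1 ChIP of null cells as the control. At the threshold of 5e-4, 0 of the 8 genes had a Smchd1 summit, beside 1.11% of coding genes. At 5e-3, En1 alone was listed, beside 3.07% of coding genes. En1 had a summit of score 3.76 at position 120594706, 7781 bp outside the gene, and a summit of score 2.96 at position 120603458, 971 bp into it. The second summit lay 421 bp from the null and 410 bp from the wild-type H3K4me3 summit of En1. Six3 had no Smchd1 summit within 10 kb, and the nearest, of score 3.65 at position 85645889, stood 19698 bp beyond the gene and nearer to Six2, a related homeobox gene 16847 bp from it. That summit lay 148 bp from the null and 96 bp from the wild-type H3K4me3 summit nearest to Six3. The nearest 5e-4 summit to any of the other genes was 373805 bp away (En2) or farther.

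Ctcf was listed at 2 of the 8 genes in null cells, 3 in wild-type cells with the non-silencing hairpin and 1 in untransduced wild-type cells. Of coding genes, 37.2% were listed in null cells, 50.6% with the non-silencing hairpin and 29.5% in untransduced cells. En1 was listed in all 3, with scores of 6.03 in null cells, 14.7 with the non-silencing hairpin and 7.72 in untransduced cells. The outer Smchd1 summit of En1 stood 5 bp from the null Ctcf summit there, 32 bp from the non-silencing and 60 bp from the untransduced one. Six3 had a summit of score 7.67 in null cells and one of score 14.55 with the non-silencing hairpin, 20 bp apart and outside the gene. Emx2 had 1 with the non-silencing hairpin, of score 15.4 and 4301 bp outside the gene. Otx1, Otx2, Emx1, En2 and Gbx2 had none in any of the 3 lists, as did 44.8% of coding genes. The 3 lists held 11920 summits in null cells, 20483 with the non-silencing hairpin and 8292 in untransduced cells, and share the same control libraries.

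MBD summits were listed at all 5 forebrain factors in both lists, and at 1 of the 3 midbrain and hindbrain factors, Gbx2, in both. Of coding genes, 79.1% were listed in the list named D1 and 82.1% in the list named WT, and 17.6% in neither, as were En1 and En2. Within 20 kb, En1 and En2 were listed too, in the list named WT only. Because the labels tie each list to samples titled with the other genotype, no genotype is given to either. At Otx1 the summit scored 46.9 in the D1-named list, above 88.7% of it, and 90.8 in the WT-named list, above 99.6% of it, and lay outside the gene at its lower end. Otx2 had summits of scores 11.3 and 29.4 in the D1-named list and 18.2 and 34.0 in the WT-named list, beyond the end where it starts. Emx1 had 3 in the D1-named list, of scores 7.82, 32.5 and 14.6, and 2 in the WT-named list, of scores 32.8 and 22.3. The highest Emx1 summit of each list lay inside the gene near its upper end, far from the promoter. Emx2 had 1 summit, of score 14.6 in the D1-named and 24.6 in the WT-named list, and Six3 had 1, of score 7.82 and 11.3 in that order of lists. The Gbx2 summit scored 18.3 in the D1-named list and 8.14 in the WT-named list, inside the gene and 2430 and 2361 bp from its start in that order. No MBD summit fell inside any of the 9 promoters of these genes, some of which overlap at Otx2. The share of all promoters that hold such a summit was not counted, so this is not shown to be unusual. In place the lists were alike, with 8 of 9 D1-named summits within 1 kb of a WT-named one and 8 of 8 the other way round, beside 98.2% and 82.5% of the whole lists.

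**Figure D4:**
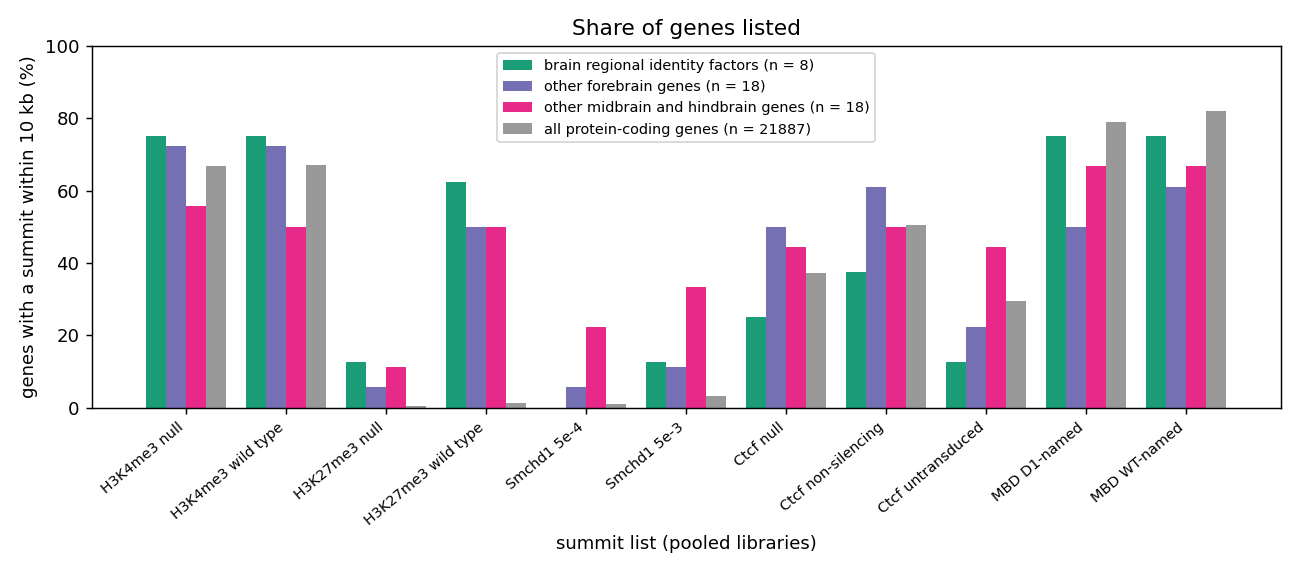
Percent of genes with a summit inside the gene or within 10 kb in each list, for the 8 brain regional identity factors, the 18 other forebrain genes, the 18 other midbrain and hindbrain genes and all protein-coding genes. For null H3K27me3 1 of 8, 1 of 18, 2 of 18 and 0.32% are listed in that order of genes, and for wild-type H3K27me3 5 of 8, 9 of 18, 9 of 18 and 1.24%.

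The other genes of regional patterning were described from 2 lists of 18 genes each. For H3K27me3, 1 of 18 forebrain genes was listed in null cells (Fezf1) and 9 of 18 in wild-type cells, beside 0.32% and 1.24% of coding genes in the same order. Those listed in wild-type cells and not in null cells were Dlx1, Dlx2, Dlx5, Fezf2, Lhx5, Nkx2-1, Six6 and Sp8. Of the 18 midbrain and hindbrain genes, 2 were listed in null cells (Pax2 and Pax5) and 9 in wild-type cells. There the genes listed in wild-type cells and not in null cells included Gbx1, Hoxa2, Lmx1b, Pax8 and Wnt1. No gene of either list had H3K27me3 in null cells without having it in wild-type cells. Some genes of these lists, such as Dlx1 and Dlx2, are neighbours whose windows overlap and are not separate observations.

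For H3K4me3, 13 of 18 forebrain genes were listed in null cells and 13 in wild-type cells, and 10 null and 9 wild-type of the 18 midbrain and hindbrain genes, beside 66.8% of coding genes in null cells and 67.1% in wild-type cells. Genes listed in null cells and not in wild-type cells were Lhx5, of score 5.74, among the forebrain genes, and Pax2, of score 4.86, and Atoh1, of score 8.00, among the midbrain and hindbrain genes. Coding genes of that kind made up 0.978%. Listed in wild-type cells and not in null cells were Fezf2, of score 6.95, and Lmx1b, of score 8.45, beside 1.27% of coding genes. In wild-type cells 5 genes of each list had both marks, beside 0.754% of coding genes, and 4 of each had H3K27me3 without H3K4me3, beside 0.484%. Smchd1 summits at 5e-4 were listed at 1 of 18 forebrain genes and 4 of 18 midbrain and hindbrain genes, beside 1.11% of coding genes.

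Some genes outside these lists had nearly the same numbers of summits over the 11 lists. Likeness was the sum over the lists of the absolute difference in log2(number of summits + 1), where 0 is an identical profile. Otx2 was most like Hand1 and Sox14, each with a sum of 1.75, and Emx1 was most like Hhex (1.42) and Msx2 (1.58). En1 had no close match, with Lbx1 at 3.53 and Hoxa4 at 4.22. En2 was nearest to Neurod2 (1.57) and Tmem59l (1.74), and Otx1 to Lancl3 (0.53) and Ss18l2 (0.73). Ss18l2 was among 5 genes at its sum or less, and Msx2 and Tmem59l were each among 3. Emx2 was nearest to Ccno and Mcidas, each at 0.42. Ccno and Mcidas had identical counts in every list, and whether their windows overlap was not checked, so they may not be separate matches. Six3 was nearest to Akr1c18 and Ang4 among 26 genes at 1.0, and Gbx2 to Rskr and Shroom4 among 4 genes at 0.0. Low sums are easily reached by genes with few summits, so the likeness of Six3 and Gbx2 is a description of small counts.

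The cells bore H3K4me3 at the markers of neural stem cells. All 12 such markers were listed in each genotype, with 9 null and 7 wild-type summits at Sox2. Of all coding genes, 66.8% were listed in null cells and 67.1% in wild-type cells, so single listed markers do not tell cell types apart. Markers of other cell types were listed too. All 7 neuronal markers were listed in both genotypes, as were 2 of 3 astrocyte, 2 of 3 oligodendrocyte, 2 of 3 endothelial and 1 of 3 mesenchymal markers. Of 4 blood and microglia markers, 1 was listed in null cells (Aif1) and 2 in wild-type cells. These summits lie within 10 kb and may belong to neighbouring genes. High scores occurred among them, such as 34.1 in null and 39.4 in wild-type cells at the astrocyte gene Gfap and 59.8 in null and 51.6 in wild-type cells at the microglial gene Aif1. Hbb-bt and Cx3cr1 (blood and microglia), Cdh5 (endothelium), Col1a2 and Twist1 (mesenchyme), and Aqp4 (astrocytes) had 0 in both genotypes. Which cells in these cultures carried each mark was not measured, so 2 marks on the same chromosome and 2 marks in different cells cannot be told apart.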

How the data were processed

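Summit lists of ChIP-seq for H3K4me3, H3K27me3, Smchd1 and Ctcf and of MBD-seq were analysed. The submitters' processing notes name CASAVA 1.4 for base calling, MACS2 (version 2) for peaks and the build mm10; no aligner was given in the sources used here. Per the labels, each list pools the libraries of a group. The control was the Smchd1 ChIP of null cells for Smchd1, the Ctcf ChIP of wild-type cells that carried Ctcf hairpins for Ctcf, and the matching whole cell extract for histone marks and MBD. Differences in depth between groups change how many summits pass the threshold, and depth is unknown. The score in the deposited files is a −log10 p-value or q-value, and the sources used here do not say which.

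Summits on assembled chromosomes were counted inside each gene of the RefSeq table (GRCm38.p6, which gives no exons) or within 10 kb. Summits within 1 kb counted as shared. Shares of all 21887 protein-coding genes stand as the background. The median window, gene and flanks together, was 26778 bp for the 8 genes and 37169 bp for all coding genes. A wider window can hold more summits, so these shares, those for Ctcf and MBD included, compare windows of unlike size. Python 3.11.15, numpy 2.4.6, pandas 2.3.3 and matplotlib 3.10.9 were used, and the counting was tested on simulated data. All 8 genes are named, fixed-list genes are named where listed in 1 genotype of a histone mark, and the 2 genes most like each are named, excluding overlapping windows. Some genes this rule chose are not reported here. Single summits compared with their list were named after their values were seen. The genes and gene lists were chosen with earlier results of these data known. Alternatives were other windows, score minimums, equal list lengths, sharing distances and the 5e-3 Smchd1 threshold.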

Additional observations from a re-analysis of the deposited data

How the results depend on the processing

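The numbers of listed genes in H3K4me3 stayed within 1.5 times under every window, score minimum and equal list length. The 2 genotypes did not list the same genes under the score minimums. At a score of at least 5 the null list held 6 and the wild-type list 5, without Emx1. At 10 the null list held 5 and the wild-type list 4, with En1 in the null list only. H3K27me3 counts moved with the settings. Null midbrain and hindbrain factors numbered 1, and 0 with the gene body alone, a 2 kb window or a score of at least 5 or 10. Wild-type forebrain factors numbered 3, 1 at a score of at least 5 or with equal numbers of summits, and 0 at 10. Wild-type midbrain and hindbrain factors numbered 2, 1 with the gene body alone, at 5 or with equal numbers, and 0 at 10. Smchd1 at 5e-4 listed 0 genes, 1 within 20 kb (Six3) and 1 at the 5e-3 threshold (En1). Null Ctcf listed 2 genes, 0 with the gene body, 2 kb, 5 kb or a score of at least 10, and 1 with equal numbers. Non-silencing Ctcf listed 3, 0 with the gene body or 2 kb and 1 with 5 kb. Untransduced Ctcf listed 1, and 0 with the gene body, 2 kb, 5 kb or a score of at least 10. Both MBD lists held 6 genes, 2 with the gene body and 3 with 2 kb. Within 20 kb the WT-named list held all 8, En1 and En2 among them, and the D1-named list 6. With equal numbers of summits the WT-named list held 5, without Gbx2, and the D1-named list 6. Within 5 kb instead of 1 kb, 1 H3K27me3 summit of each genotype had a counterpart, against 0. The cause of these moves was not tested, apart from those that a smaller window or stricter score makes by removing summits. No paired analysis was possible because each list pools its libraries and carries no replicate, and for that reason there was none to leave out. Depth is unknown, so an unlisted gene is not shown to lack a mark.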
